A study of Arabidopsis thaliana with 12 samples.

Results

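Of the 33602 genes in the count table, 106 stood at least 1.5-fold higher with YC4-R4 than in control soil in Col-0 plants and at least 1.5-fold lower with YC4-R4 than in control soil in rdd mutant plants. The genes were selected on the mean CPM of each group, which is a gene's read count scaled to a common library total, with at least 2 CPM in the Col-0 YC4-R4 group. The selection left out by name 10 further genes that met these conditions, 6 of them on the list of jasmonate genes used further on. The YC4-R4 effect in each genotype and the difference between these effects therefore chose the genes, and are given below as a description with no test. All 106 genes were among the 20651 genes that passed the filter on low counts, and all were matched to the reference annotation, 103 as protein coding and 3 as non-coding RNA genes.

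Messenger RNA was sequenced from whole Arabidopsis thaliana plants of 2 weeks of age, in 12 libraries. The groups were rdd plants in soil with YC4-R4, rdd plants in regular soil (control), Col-0 plants in soil with YC4-R4 and Col-0 plants in regular soil, with 3 libraries each that the series design calls biological replicates. Col-0 is the wild-type reference accession, and rdd is a triple mutant in the Col-0 background that carries mutations in ROS1, DML2 and DML3, which encode enzymes that cut methylated cytosine out of DNA. The series title names beneficial soil bacteria of the root and myo-inositol, and the labels give no further detail of YC4-R4. All groups share the Col-0 background and growth in soil, and whole plants mix leaf and root, so fewer cells of a type and less RNA per cell cannot be told apart.

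Several of the genes belong to hormone and stress pathways that are well described in this species. Jasmonate is a wound and defence hormone that is made from membrane lipids by lipoxygenases and later enzymes, and its perception removes JAZ repressor proteins, whose own genes it induces. Abscisic acid, the hormone of water deficit, binds soluble receptors of the PYR/PYL family. Drought and cold also induce dehydrins and other protective proteins through transcription factors that bind the dehydration-responsive element (DRE) in promoters. FLS2 and EFR are cell-surface receptors for the bacterial flagellin and elongation factor Tu.

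The stretch upstream of 4 of the genes shows the short motifs that are compared further on. The first pair is shown for the DRE core, the second for the T/G-box, a motif bound by MYC-type factors of the jasmonate response. MDHAR, which encodes a monodehydroascorbate reductase of ascorbate recycling, was picked for its motifs after its values were seen. Each sequence holds the 300 bases before the annotated gene start, 5′ to 3′ on the gene's strand, from RefSeq TAIR10.1, with matches in capitals on either strand.

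LTI78 (chr5:21240417-21240716, plus strand): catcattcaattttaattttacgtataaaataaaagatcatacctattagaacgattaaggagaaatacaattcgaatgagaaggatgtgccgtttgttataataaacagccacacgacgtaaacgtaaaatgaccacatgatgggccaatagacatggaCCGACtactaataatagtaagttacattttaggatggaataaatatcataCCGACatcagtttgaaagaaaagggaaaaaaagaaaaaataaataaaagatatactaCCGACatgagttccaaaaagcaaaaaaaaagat
ERD7 (chr2:7757930-7758229, minus strand): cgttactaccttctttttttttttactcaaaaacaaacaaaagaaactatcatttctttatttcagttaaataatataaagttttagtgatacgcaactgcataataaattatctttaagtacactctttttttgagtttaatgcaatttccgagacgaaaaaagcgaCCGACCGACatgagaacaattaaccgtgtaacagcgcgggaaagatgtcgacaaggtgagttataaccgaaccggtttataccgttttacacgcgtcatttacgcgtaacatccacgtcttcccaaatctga
PCK2 (chr5:26265880-26266179, plus strand): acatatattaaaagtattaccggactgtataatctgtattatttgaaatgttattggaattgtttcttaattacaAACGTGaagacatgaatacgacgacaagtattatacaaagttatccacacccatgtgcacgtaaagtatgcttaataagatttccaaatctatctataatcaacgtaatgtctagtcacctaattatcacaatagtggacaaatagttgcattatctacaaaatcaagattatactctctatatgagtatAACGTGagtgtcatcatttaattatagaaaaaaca
MDHAR (chr3:3059245-3059544, minus strand): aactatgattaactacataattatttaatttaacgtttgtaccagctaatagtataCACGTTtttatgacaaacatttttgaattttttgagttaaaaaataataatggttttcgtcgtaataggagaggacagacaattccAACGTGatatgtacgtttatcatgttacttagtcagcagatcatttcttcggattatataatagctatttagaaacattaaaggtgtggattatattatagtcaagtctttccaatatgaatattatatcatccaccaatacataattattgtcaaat

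The DRE core CCGAC stood 3 times before LTI78, with the first base 140, 90 and 33 bases before the gene start. It stood 2 times before ERD7, where the 2 copies share a base. The T/G-box AACGTG stood 2 times before PCK2, from 225 and from 35 bases before the start. Upstream of MDHAR it stood once in each orientation.

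The counts in a library summed to between 14465710 and 20281801. The mutated genes did not separate the genotype labels. DML3 averaged 0.616 ± 0.352 CPM in libraries labelled rdd YC4-R4 and 3.54 ± 0.13 CPM in those labelled rdd control, against 0.788 ± 0.410 CPM in Col-0 plants with YC4-R4 and 4.7 ± 0.728 CPM in Col-0 control libraries (SD, n = 3). Over both soils, the adjusted p of ROS1, DML2 and DML3 for genotype was 0.475, 0.501 and 0.0919 (edgeR, Benjamini-Hochberg). A count over a whole gene need not fall in a mutant, and every comparison of genotypes here sets libraries against each other by their labels. Errors after CPM are SD (n = 3) and errors after log2 values are standard errors. The summed CPM of 6 leaf markers ran from 24300 to 25100 in rdd YC4-R4 and from 22900 to 23900 in rdd control, against 24900 to 25400 in Col-0 YC4-R4 and 27900 to 29200 in Col-0 control libraries. For 7 root markers the sums ran from 1020 to 1040 and 965 to 1020 in rdd YC4-R4 and rdd control, against 1070 to 1080 and 1100 to 1110 in Col-0 YC4-R4 and Col-0 control. These sums are almost all PYK10, at 997 and 949 CPM in rdd YC4-R4 and rdd control, against 1040 and 1080 CPM in Col-0 YC4-R4 and Col-0 control. Over both soils PYK10 was called lower in rdd, while CASP1, MYB36 and IRT1 were called higher, and the median log2 effect of the 7 root markers was 0.19. Of the 6 leaf markers, 0 were called higher and 5 lower in rdd, with a median of -0.26. Over all tested genes the shares called were 20.8% higher and 22.2% lower. The 5 flower markers summed to at most 3.38 CPM in any library. The part of these differences in the results was not tested, and a growth or harvest condition shared by a whole group cannot be told apart from its genotype or soil.

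Across the 106 genes, the ratio of YC4-R4 over control mean CPM ran from 0.25 to 0.666 in rdd, with a median of 0.548, and from 1.51 to 3.9 in Col-0, with a median of 1.81. Of the 722 genes that met the Col-0 limits, 116 were lower with YC4-R4 in rdd by the same fold, the 10 left out included, and 132 were higher by that fold. The mirror pattern, higher with YC4-R4 in rdd and lower in Col-0 by the same folds and with at least 2 CPM in rdd YC4-R4, held for 41 genes. Both changes were 2-fold or more in 16 genes, and 36 genes lay within 1.6-fold on at least one side. On the fitted log2 scale, which uses TMM-normalized library sizes, the median YC4-R4 effect was -0.90 in rdd and 0.74 in Col-0, beside 0.00 over all tested genes in both. All rdd YC4-R4 libraries lay below all rdd control libraries in 103 of the genes, where the share over all tested genes was 18.1%. All Col-0 YC4-R4 libraries lay above all Col-0 control libraries in 106, where that share was 36.5%. The 3 genes with overlapping rdd libraries, AT1G19320, AT3G22121 and AT3G59750, averaged 4.32 CPM or less in each group.

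The genes just inside the Col-0 limit were BZS1 (1.511-fold), AT3G59750 (1.514) and AT3G59350 (1.519), and those just outside were AT2G23120 (1.495), ACO1 (1.483) and AT5G24570 (1.481). On the rdd side AT1G72790 (1.501-fold lower), AT3G59350 (1.508) and XTH16 (1.519) were just inside, and EBF2 (1.499), AT3G04010 (1.499) and RLP46 (1.493) just outside. For the level in Col-0 YC4-R4, AT4G20362 (2.108 CPM), AT1G19320 (2.128) and sks15 (2.347) were just inside and TOM7-2 (1.986), AT2G15760 (1.964) and AT4G34810 (1.906) just outside.

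The selection set Col-0 YC4-R4 above Col-0 control and rdd control above rdd YC4-R4. It thus left 6 possible orders of the 4 groups, and all 6 occurred. Only rdd control or Col-0 YC4-R4 could be highest, and only rdd YC4-R4 or Col-0 control lowest. The highest group was rdd control in 70 genes and Col-0 YC4-R4 in 36, and the lowest was rdd YC4-R4 in 36 and Col-0 control in 70. In 46 genes the order from high to low was rdd control, Col-0 YC4-R4, rdd YC4-R4, Col-0 control. In 25 it was Col-0 YC4-R4, rdd control, Col-0 control, rdd YC4-R4. In 17 both rdd groups stood above both Col-0 groups, and in 4 both stood below. Orders of means include neighbours within their spread, such as rdd YC4-R4 and Col-0 YC4-R4 for PYL4. Within control soil, the ratio of rdd over Col-0 had a median of 2.15, and within YC4-R4 soil it had a median of 0.694. The median ratio across the diagonal was 1.2 for rdd YC4-R4 over Col-0 control and 1.21 for rdd control over Col-0 YC4-R4. The heat map of the 106 genes shows these levels, in which the opposite YC4-R4 effects were set by the selection.

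**Figure D1:**
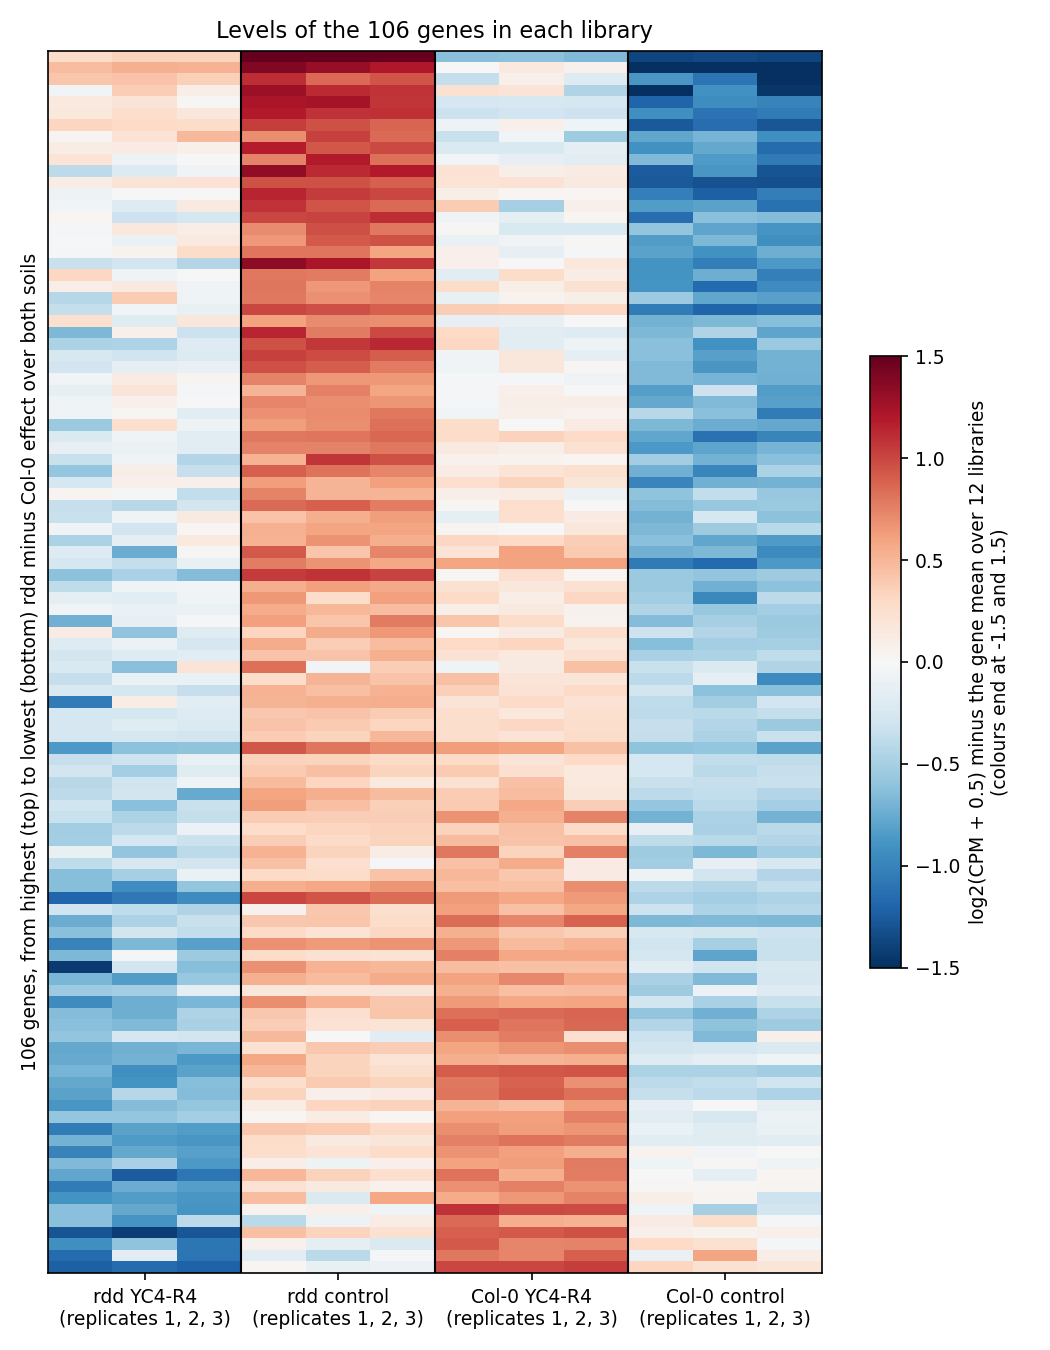
Each row is 1 of the 106 genes and each column 1 of the 12 libraries, in the order rdd YC4-R4, rdd control, Col-0 YC4-R4 and Col-0 control with 3 replicates each, and the colour gives log2(CPM + 0.5) minus the gene's mean over the libraries. Rows are sorted by the genotype effect over both soils, so that rdd control is the highest group in most upper rows (70 genes in all) and Col-0 YC4-R4 in most lower rows (36 genes in all).

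The genotype effect averaged over both soils does not contain the YC4-R4 ratios that chose the genes. The floor of 2 CPM in Col-0 YC4-R4 does enter it, and 1 of the 106 genes was under 2 CPM in each of the other groups. On this contrast, 55 of the 106 genes were higher and 31 lower in rdd (quasi-likelihood test of edgeR, adjusted p under 0.05 by Benjamini-Hochberg). Higher or lower over both soils refers below to this average, and need not hold within each soil. With the floor set on the mean of all 12 libraries instead, a choice made after seeing the data, the same folds gave 105 genes, 103 of them shared, with 57 higher and 30 lower in rdd and a median log2 effect of 0.29. Among all 20651 tested genes the share called was 43.1%, with 20.8% higher and 22.2% lower. The log2 effect of the genes ran from -1.33 for LOX3 to 1.95 for ERD5, with a median of 0.20 and quartiles at -0.24 and 0.69, beside a median of 0.00 over all tested genes. All 6 rdd libraries lay above all 6 Col-0 libraries in 8 genes, where the share over all tested genes was 8.14%. They lay below in 1 gene, LOX3, where that share was 4.12%. Among the 106 genes these shares were 7.55% and 0.943%. The selection set the 2 soils at least 1.5-fold apart within each genotype, which makes such separation harder. Nothing is read from these shares.

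Within one soil, the genotype difference is tied to the choice of the genes, and nothing is read from its counts. In control soil, 95 were called higher and 2 lower in rdd (shares over all tested genes 20.9% and 23.0%). In YC4-R4 soil, 8 were called higher and 71 lower in rdd (14.3% and 14.4%).

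The 5 jasmonate genes in the set were highest in Col-0 YC4-R4 plants. Over both soils 3 of 5 were lower in rdd and 0 higher (shares over all tested genes 22.2% and 20.8%). The 6 jasmonate genes left out by name were not so uniform. CYP94C1 (49.9 ± 3.56 against 41.9 ± 1.18 CPM) and JAO4 (5.23 ± 1.08 against 4.89 ± 0.454 CPM) had a higher mean in rdd control than in Col-0 YC4-R4. Over both soils JAO2 and JAO4 were called higher in rdd, and the others of the 6 lower. LOX3, a lipoxygenase of jasmonate synthesis, had 23.8, 25.1 and 24.0 CPM in rdd YC4-R4 and 57.7, 52.2 and 53.1 CPM in rdd control libraries, against 114, 114 and 116 CPM in Col-0 plants with YC4-R4 and 70.6, 66.3 and 64.0 CPM in Col-0 control libraries. No library of any group overlapped with those of another group, and both rdd groups lay below both Col-0 groups. Over both soils LOX3 was lower in rdd (log2 -1.33 ± 0.04, edgeR, Benjamini-Hochberg adjusted p = 1.3e-26). JAZ10, a repressor that responds strongly to jasmonate, had 7.34, 6.69 and 8.11 CPM in rdd YC4-R4 and 15.6, 17.0 and 16.4 CPM in rdd control libraries, against 22.6, 24.2 and 21.0 CPM in Col-0 plants with YC4-R4 and 9.71, 9.87 and 10.4 CPM in Col-0 control libraries. Its rdd YC4-R4 libraries were the lowest and its Col-0 YC4-R4 libraries the highest, with no overlap between any groups, and over both soils it was lower in rdd (log2 -0.50 ± 0.07, edgeR, Benjamini-Hochberg adjusted p = 6.76e-08). TIFY7, also known as JAZ9, averaged 113 ± 9.91 CPM in rdd YC4-R4 and 183 ± 5.22 CPM in rdd control libraries, against 199 ± 2.96 CPM in Col-0 plants with YC4-R4 and 110 ± 2.79 CPM in Col-0 control libraries. Its genotype effect averaged over both soils was slightly below 0 (log2 -0.09 ± 0.03, edgeR, Benjamini-Hochberg adjusted p = 0.0143), a call lost without rdd YC4-R4 replicate 1. In control soil the rdd means of JAZ10 and TIFY7 were 1.63 and 1.67 times Col-0, and in YC4-R4 soil 0.326 and 0.568 times. JRG21, which encodes an oxygenase that inactivates jasmonate by hydroxylation, averaged 1.09 ± 0.2 CPM in rdd YC4-R4 and 1.74 ± 0.542 CPM in rdd control libraries, against 2.57 ± 0.561 CPM in Col-0 plants with YC4-R4 and 1.19 ± 0.432 CPM in Col-0 control libraries. It reached the floor of 2 CPM only in Col-0 YC4-R4, the group to which the floor applied. ST2A, a sulfotransferase that acts on hydroxyjasmonate, averaged 3.68 ± 0.223 CPM in rdd YC4-R4 and 6.6 ± 0.0297 CPM in rdd control libraries, against 8.11 ± 0.644 CPM in Col-0 plants with YC4-R4 and 3.04 ± 0.333 CPM in Col-0 control libraries. Neither passed the test over both soils (edgeR, Benjamini-Hochberg adjusted p = 0.0964 for JRG21 and 0.624 for ST2A).

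The set holds 5 of the 42 tested genes of a jasmonate list, and 6 more of the list are among the genes left out by name. Of the list, 9 were called higher and 23 lower with YC4-R4 in rdd, and 25 higher and 7 lower with YC4-R4 in Col-0. Over all tested genes the shares were 15.1% higher and 17.1% lower in rdd, and 12.9% higher and 16.9% lower in Col-0. Its median log2 effect was -0.52 in rdd and 0.55 in Col-0. These counts and medians include the 5 members and the 6 genes left out by name, whose directions the selection fixed. Over both soils, 7 of the list were higher and 26 lower in rdd (shares over all tested genes 20.8% and 22.2%), with a median of -0.22. Higher in Col-0 and lower in rdd were both called in 13 genes of the list, beside 3.46% of all tested genes. Of these 13, 10 are members or genes left out by name, which the selection fixed, and 3 changed by too little to be members. One of these was TIFY10B, also known as JAZ2, at -0.51 ± 0.05 in rdd and 0.65 ± 0.05 in Col-0 on the log2 scale (edgeR, Benjamini-Hochberg adjusted p = 8.49e-11 and 1.77e-13). The others were the conjugate hydrolases IAR3, at -0.53 ± 0.05 in rdd and 0.62 ± 0.05 in Col-0 on the log2 scale (edgeR, Benjamini-Hochberg adjusted p = 4.73e-10 and 9.53e-12), and ILL6, at -0.35 ± 0.07 in rdd and 0.51 ± 0.06 in Col-0 on the log2 scale (edgeR, Benjamini-Hochberg adjusted p = 6.19e-05 and 7.18e-08). VSP1, a vegetative storage protein and jasmonate output, was higher with YC4-R4 in both genotypes, at 1.32 ± 0.07 in rdd and 0.98 ± 0.07 in Col-0 on the log2 scale (edgeR, Benjamini-Hochberg adjusted p = 7.79e-17 and 1.55e-13). JAZ1 and MYC2 were lower with YC4-R4 in both, with JAZ1 at -1.27 ± 0.05 in rdd and -0.23 ± 0.05 in Col-0 on the log2 scale (edgeR, Benjamini-Hochberg adjusted p = 2.04e-20 and 0.000461). The 10 genes left out by name had ratios from 0.0832 to 0.643 in rdd (median 0.379) and from 1.95 to 14.7 in Col-0 (median 4.05). Over both soils, 5 of them were higher and 4 lower in rdd (shares over all tested genes 20.8% and 22.2%).

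Genes of cold, dehydration and abscisic acid included the most abundant gene of the set, COR47. All 13 passed the test over both soils, 7 higher and 6 lower in rdd (shares over all tested genes 20.8% and 22.2%). The receptor genes PYL4 and PYL5, TMAC2 and 3 late embryogenesis abundant (LEA) proteins were higher together with the dehydrin COR47. The dehydrins ERD10 and LTI30 were lower on this average together with LTI78, KIN1, ERD7 and HVA22D. In control soil, though, the means of these 6 genes were higher in rdd, from 1.21 (ERD7) to 2.02 (LTI30) times Col-0. In YC4-R4 soil they were lower, from 0.209 (ERD7) to 0.383 (LTI30) times Col-0. LTI78, also known as RD29A and a standard reporter of cold and drought, had 63.7, 54.7 and 59.4 CPM in rdd YC4-R4 and 147, 131 and 125 CPM in rdd control libraries, against 195, 198 and 199 CPM in Col-0 plants with YC4-R4 and 74.7, 74.2 and 72.1 CPM in Col-0 control libraries. The 4 groups did not overlap, with Col-0 YC4-R4 highest and rdd YC4-R4 lowest. LTI78 was lower in rdd over both soils (log2 -0.49 ± 0.04, edgeR, Benjamini-Hochberg adjusted p = 3.89e-14). ERD7, a dehydration-induced gene, had 84.0, 77.2 and 84.4 CPM in rdd YC4-R4 and 283, 261 and 243 CPM in rdd control libraries, against 385, 392 and 400 CPM in Col-0 plants with YC4-R4 and 218, 214 and 218 CPM in Col-0 control libraries. Its rdd YC4-R4 libraries lay far below all others, at a ratio of 0.312 to rdd control, and over both soils it was lower in rdd (log2 -1.05 ± 0.03, edgeR, Benjamini-Hochberg adjusted p = 1.18e-25). KIN1, a small cold-induced protein, was scarce, at 0.695 ± 0.0232 CPM in rdd YC4-R4 and 2.21 ± 0.737 CPM in rdd control libraries, against 2.93 ± 0.228 CPM in Col-0 plants with YC4-R4 and 1.61 ± 0.309 CPM in Col-0 control libraries.

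COR47 and ERD10 are neighbours on chromosome 1, 1029 bases apart, and encode related acidic dehydrins. COR47 had 404, 403 and 424 CPM in rdd YC4-R4 and 645, 652 and 634 CPM in rdd control libraries, against 584, 541 and 575 CPM in Col-0 plants with YC4-R4 and 369, 367 and 378 CPM in Col-0 control libraries. ERD10 had 175, 207 and 203 CPM in rdd YC4-R4 and 481, 470 and 442 CPM in rdd control libraries, against 587, 560 and 574 CPM in Col-0 plants with YC4-R4 and 339, 319 and 337 CPM in Col-0 control libraries. With YC4-R4 in rdd, ERD10 stood at 0.421 of its control level and COR47 at 0.638. The pair split on the average over both soils, with ERD10 lower in rdd (log2 -0.59 ± 0.03, edgeR, Benjamini-Hochberg adjusted p = 3.15e-18) and COR47 slightly above 0 (log2 0.11 ± 0.02, edgeR, Benjamini-Hochberg adjusted p = 0.000434). Within each soil the pair went the same way. The rdd means of ERD10 and COR47 were 1.4 and 1.73 times Col-0 in control soil, and 0.34 and 0.725 times in YC4-R4 soil.

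PYL4 had 121, 129 and 130 CPM in rdd YC4-R4 and 218, 218 and 209 CPM in rdd control libraries, against 129, 130 and 123 CPM in Col-0 plants with YC4-R4 and 46.7, 44.9 and 44.8 CPM in Col-0 control libraries. The YC4-R4 libraries of both genotypes overlapped, while rdd control was above and Col-0 control below them. PYL5 showed the same order, with 50.8 ± 1.64 CPM in rdd YC4-R4 and 108 ± 5.31 CPM in rdd control libraries, against 53.3 ± 1.35 CPM in Col-0 plants with YC4-R4 and 23.9 ± 1.8 CPM in Col-0 control libraries. Both receptors were higher in rdd over both soils, PYL4 by 1.06 ± 0.03 and PYL5 by 1.00 ± 0.04 (edgeR, Benjamini-Hochberg adjusted p = 4.06e-26 and 4.44e-22). TMAC2, which encodes a negative regulator of abscisic acid signalling, averaged 18.7 ± 1.11 CPM in rdd YC4-R4 and 56.0 ± 5.46 CPM in rdd control libraries, against 25.2 ± 1.41 CPM in Col-0 plants with YC4-R4 and 12.3 ± 0.798 CPM in Col-0 control libraries, and was higher in rdd over both soils (log2 0.82 ± 0.05, edgeR, Benjamini-Hochberg adjusted p = 3.64e-15). For TMAC2 the rdd mean was 4.54 times Col-0 in control soil and 0.741 times in YC4-R4 soil. Among 27 tested genes of an abscisic acid list, 4 were members (PYL4, PYL5, LTI78 and COR47) and 1 was left out by name. Of the list, 11 were called higher and 10 lower with YC4-R4 in rdd (shares over all tested genes 15.1% and 17.1%). In Col-0, 10 were called higher and 7 lower (12.9% and 16.9%). These counts include the 4 members and the 1 gene left out by name, whose directions the selection fixed. Both calls, higher in Col-0 and lower in rdd, were made in 6, beside 3.46% of all tested genes. Of these 6, 4 are members and 1 was left out by name, which the selection fixed. RD29B, a close relative of LTI78 listed as LTI65, stayed under 1 CPM in each group. RAB18, a dehydrin induced by abscisic acid, was higher with YC4-R4 in both genotypes, at 0.92 ± 0.11 in rdd and 0.66 ± 0.10 in Col-0 on the log2 scale (edgeR, Benjamini-Hochberg adjusted p = 1.37e-08 and 1.94e-06).

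**Figure D2:**
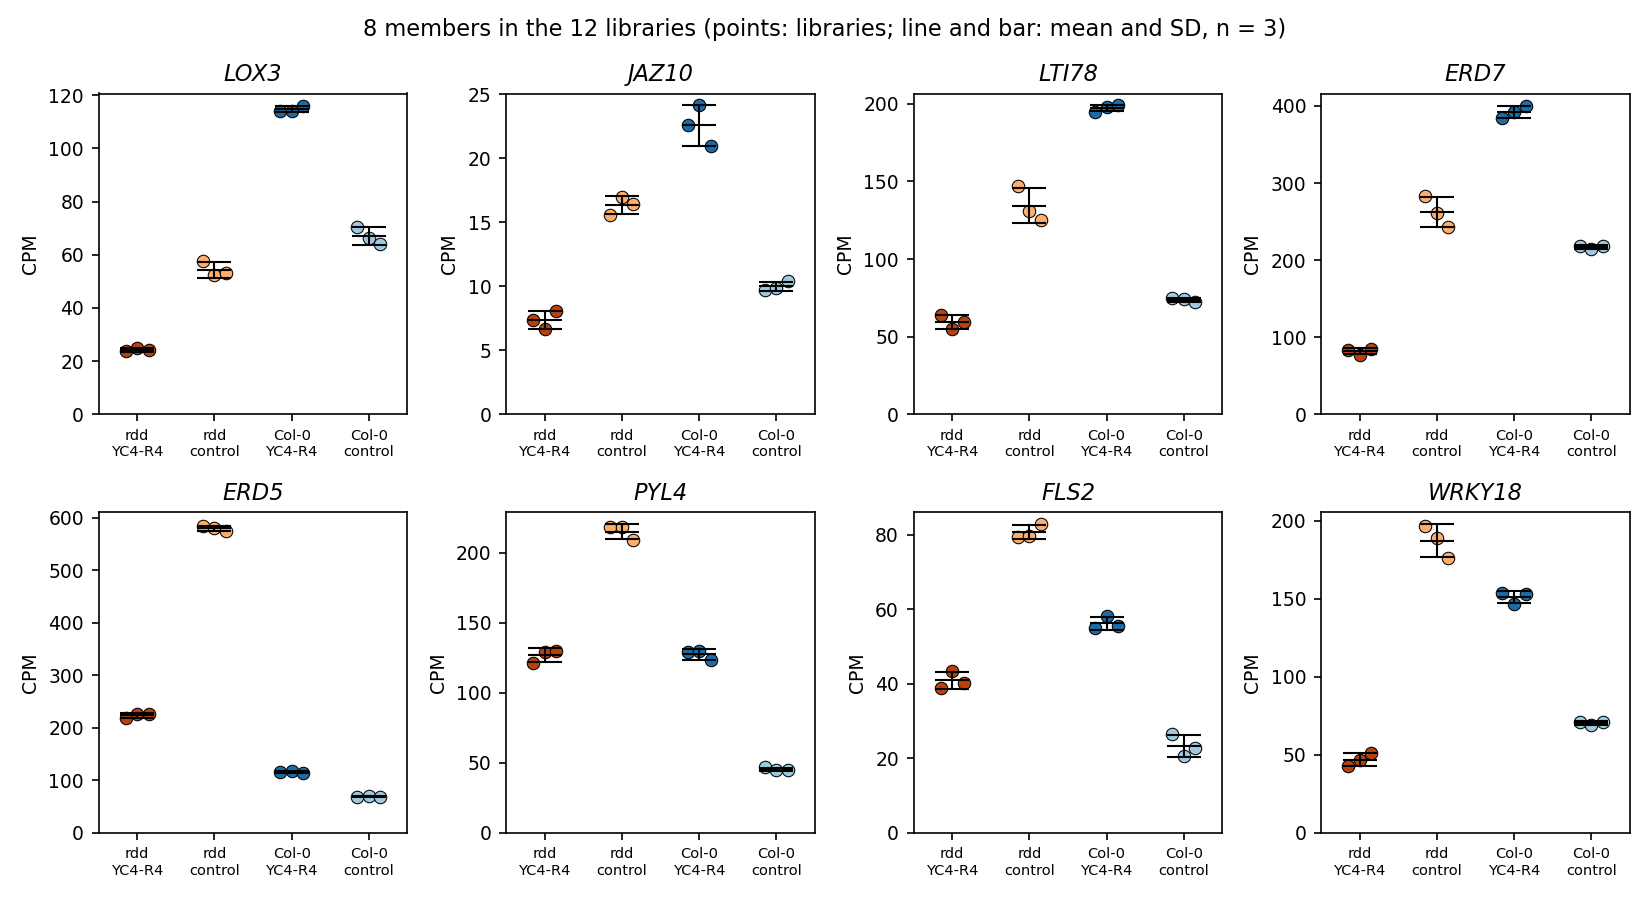
CPM (vertical axes, from 0) of 8 of the genes in rdd YC4-R4, rdd control, Col-0 YC4-R4 and Col-0 control libraries, with a point per library and lines for the mean and SD (n = 3). In all panels rdd YC4-R4 lies below rdd control and Col-0 YC4-R4 above Col-0 control, while the rank of the genotypes differs, from LOX3 (rdd lower in both soils) to ERD5 (rdd higher in both soils).

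The 3 genes of proline, sugar and carbon use had higher means in both rdd groups than in both Col-0 groups. ERD5 encodes proline dehydrogenase, which breaks down proline in mitochondria. It had 218, 227 and 226 CPM in rdd YC4-R4 and 585, 580 and 574 CPM in rdd control libraries, against 116, 117 and 113 CPM in Col-0 plants with YC4-R4 and 68.9, 70.1 and 68.7 CPM in Col-0 control libraries. No groups overlapped, and over both soils ERD5 had the highest genotype effect of the 106 genes (log2 1.95 ± 0.03, edgeR, Benjamini-Hochberg adjusted p = 1.53e-35). SIP2, a raffinose-type galactosidase gene, averaged 356 ± 14.6 CPM in rdd YC4-R4 and 678 ± 26.8 CPM in rdd control libraries, against 251 ± 3.42 CPM in Col-0 plants with YC4-R4 and 153 ± 10.3 CPM in Col-0 control libraries, and was higher in rdd over both soils (log2 1.27 ± 0.03, edgeR, Benjamini-Hochberg adjusted p = 4.03e-29). PCK2, a phosphoenolpyruvate carboxykinase of gluconeogenesis, had 3.42, 4.7 and 3.81 CPM in rdd YC4-R4 and 9.33, 8.28 and 8.07 CPM in rdd control libraries, against 4.21, 4.12 and 2.45 CPM in Col-0 plants with YC4-R4 and 0.887, 1.64 and 0.967 CPM in Col-0 control libraries. Its rdd control libraries were highest and its Col-0 control libraries lowest, and it was higher in rdd over both soils (log2 1.45 ± 0.14, edgeR, Benjamini-Hochberg adjusted p = 1e-10). None of the 11 tested genes of a carbon starvation list was a member. On that list, 0 were called higher and 11 lower with YC4-R4 in rdd (shares over all tested genes 15.1% and 17.1%). In Col-0, 2 were called higher and 7 lower with YC4-R4 (12.9% and 16.9%). Over both soils 10 were higher and 1 lower in rdd (20.8% and 22.2%).

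Receptor, kinase and defence genes numbered 15. Of these, 7 were higher and 6 lower in rdd over both soils (shares over all tested genes 20.8% and 22.2%). FLS2 had 39.0, 43.4 and 40.3 CPM in rdd YC4-R4 and 79.5, 79.7 and 83.0 CPM in rdd control libraries, against 55.1, 58.2 and 55.5 CPM in Col-0 plants with YC4-R4 and 26.4, 20.7 and 22.7 CPM in Col-0 control libraries. The groups did not overlap, with rdd control highest and Col-0 control lowest. FLS2 was higher in rdd over both soils (log2 0.61 ± 0.04, edgeR, Benjamini-Hochberg adjusted p = 1.35e-14), and its gene overlaps another tested gene. In control soil its rdd mean was 3.47 times Col-0, and in YC4-R4 soil 0.727 times. EFR had 6.3, 4.92 and 6.13 CPM in rdd YC4-R4 and 12.4, 10.9 and 10.2 CPM in rdd control libraries, against 10.5, 12 and 10.3 CPM in Col-0 plants with YC4-R4 and 5.08, 5.8 and 5.4 CPM in Col-0 control libraries. Its rdd YC4-R4 libraries overlapped with Col-0 control, and its rdd control libraries with Col-0 YC4-R4. The mean of EFR in rdd was 2.06 times that in Col-0 in control soil and 0.528 times in YC4-R4 soil. These opposite differences averaged to 0.00 ± 0.09 over both soils (edgeR, Benjamini-Hochberg adjusted p = 0.988). A stretch of at least 100 bases of EFR has a match of 95% identity or more in the transcript of another gene. The receptor-like protein genes RLP32 and RLP33 lie 100 bases apart on chromosome 3. RLP32 averaged 7.85 ± 2.08 CPM in rdd YC4-R4 and 12.4 ± 0.253 CPM in rdd control libraries, against 16.6 ± 1.24 CPM in Col-0 plants with YC4-R4 and 7.52 ± 1.51 CPM in Col-0 control libraries. RLP33 averaged 3.46 ± 0.455 CPM in rdd YC4-R4 and 10.1 ± 0.783 CPM in rdd control libraries, against 4.57 ± 0.233 CPM in Col-0 plants with YC4-R4 and 1.6 ± 0.352 CPM in Col-0 control libraries. RLP33 was higher in rdd over both soils (log2 1.07 ± 0.12, edgeR, Benjamini-Hochberg adjusted p = 1.01e-09), at 6.34 times Col-0 in control soil and 0.757 times in YC4-R4 soil. RLP32 was at -0.24 ± 0.09 (edgeR, Benjamini-Hochberg adjusted p = 0.0318), a call that was lost without any one of 7 libraries. PP2-A5, a phloem lectin, was among the genes with the lowest rdd ratio, at 0.318, and averaged 18.6 ± 1.1 CPM in rdd YC4-R4 and 58.5 ± 1.43 CPM in rdd control libraries, against 30.1 ± 2.63 CPM in Col-0 plants with YC4-R4 and 18.9 ± 0.439 CPM in Col-0 control libraries. The kinase gene AT3G59350 was abundant and near both fold limits, at 202 ± 2.67 CPM in rdd YC4-R4 and 304 ± 9.24 CPM in rdd control libraries, against 229 ± 5.06 CPM in Col-0 plants with YC4-R4 and 151 ± 6.23 CPM in Col-0 control libraries. AT1G51820, a leucine-rich repeat kinase gene, had a Col-0 ratio of 2.8 and was lower in rdd over both soils (log2 -0.95 ± 0.14, edgeR, Benjamini-Hochberg adjusted p = 9.69e-07).

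All 4 jacalin-type lectin genes, whose proteins bind sugars, were higher in rdd over both soils (share over all tested genes 20.8%). Their log2 effects ran from 0.45 to 0.91. Of the 4 genes, AT1G52050, AT1G52060 and AT1G52070 are adjacent on chromosome 1. AT1G52070, the most abundant, had 10.8, 10.3 and 11.4 CPM in rdd YC4-R4 and 25.4, 26.3 and 23.9 CPM in rdd control libraries, against 14.1, 16.8 and 14.0 CPM in Col-0 plants with YC4-R4 and 8.68, 9.23 and 9.27 CPM in Col-0 control libraries. Its rdd control libraries lay above all others. AT1G52060 averaged 6.84 ± 0.843 CPM in rdd YC4-R4 and 14.1 ± 1.22 CPM in rdd control libraries, against 7.16 ± 2.22 CPM in Col-0 plants with YC4-R4 and 3.48 ± 0.459 CPM in Col-0 control libraries and AT1G52050 averaged 4.55 ± 0.668 CPM in rdd YC4-R4 and 11.2 ± 0.414 CPM in rdd control libraries, against 4.97 ± 0.327 CPM in Col-0 plants with YC4-R4 and 2.79 ± 0.622 CPM in Col-0 control libraries.

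Of 9 cell wall genes, 6 were higher and 1 lower in rdd over both soils (shares over all tested genes 20.8% and 22.2%). The most abundant was sks5, which encodes a multicopper oxidase-like wall protein, with 299, 334 and 316 CPM in rdd YC4-R4 and 514, 481 and 483 CPM in rdd control libraries, against 304, 301 and 295 CPM in Col-0 plants with YC4-R4 and 193, 189 and 186 CPM in Col-0 control libraries. Its rdd YC4-R4 and Col-0 YC4-R4 libraries overlapped, and it was higher in rdd over both soils (log2 0.67 ± 0.03, edgeR, Benjamini-Hochberg adjusted p = 1.38e-21). AT5G62360, a pectin methylesterase inhibitor family gene, averaged 57.0 ± 6.48 CPM in rdd YC4-R4 and 125 ± 4.2 CPM in rdd control libraries, against 81.3 ± 1.78 CPM in Col-0 plants with YC4-R4 and 29.0 ± 1.54 CPM in Col-0 control libraries, a Col-0 ratio of 2.8. XTH16, a xyloglucan-modifying enzyme, was at 0.11 ± 0.04 over both soils (edgeR, Benjamini-Hochberg adjusted p = 0.0121), a call lost without Col-0 control replicate 3. The adjacent extensin-like genes AT3G54580 and HRGP1 averaged 11.5 ± 4.44 CPM in rdd YC4-R4 and 20.6 ± 0.313 CPM in rdd control libraries, against 16.6 ± 0.608 CPM in Col-0 plants with YC4-R4 and 10.6 ± 0.924 CPM in Col-0 control libraries for AT3G54580 and 4.33 ± 1.17 CPM in rdd YC4-R4 and 8.31 ± 1.11 CPM in rdd control libraries, against 6.39 ± 0.875 CPM in Col-0 plants with YC4-R4 and 3.39 ± 0.217 CPM in Col-0 control libraries for HRGP1. In rdd YC4-R4 the 3 libraries of AT3G54580 were at 6.54, 15.2 and 12.6 CPM, the widest relative spread of the genes with at least 10 CPM. AT3G54580 was not called over both soils (edgeR, Benjamini-Hochberg adjusted p = 0.17), but was called without rdd YC4-R4 replicate 1. The call of HRGP1 (edgeR, Benjamini-Hochberg adjusted p = 0.0234) was lost without any one of 5 libraries.

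Transporter and channel genes were 9, with 4 higher and 4 lower in rdd over both soils (shares over all tested genes 20.8% and 22.2%). GTR1 encodes a transporter of glucosinolates, the defence compounds of this plant family. It had 92.6, 83.7 and 82.7 CPM in rdd YC4-R4 and 183, 166 and 172 CPM in rdd control libraries, against 256, 266 and 261 CPM in Col-0 plants with YC4-R4 and 135, 133 and 135 CPM in Col-0 control libraries. The groups did not overlap, and GTR1 was lower in rdd over both soils (log2 -0.67 ± 0.03, edgeR, Benjamini-Hochberg adjusted p = 4.46e-20), though its gene overlaps another tested gene. Its rdd mean was 1.29 times Col-0 in control soil and 0.331 times in YC4-R4 soil. SLAH3, an anion channel gene named here after its values were seen, averaged 39.7 ± 3.75 CPM in rdd YC4-R4 and 101 ± 10.4 CPM in rdd control libraries, against 105 ± 2.18 CPM in Col-0 plants with YC4-R4 and 53.4 ± 4.07 CPM in Col-0 control libraries, and was lower in rdd over both soils (log2 -0.30 ± 0.04, edgeR, Benjamini-Hochberg adjusted p = 4.98e-07). For SLAH3 the rdd mean was 1.88 times Col-0 in control soil and 0.378 times in YC4-R4 soil. ABCG42, likewise named after its values were seen, was higher in rdd (log2 1.13 ± 0.07, edgeR, Benjamini-Hochberg adjusted p = 8.82e-16), but it overlaps a tested gene and has a close copy.

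Among 12 transcriptional regulators, 5 were higher and 3 lower in rdd over both soils (shares over all tested genes 20.8% and 22.2%). WRKY18, a regulator of pathogen responses, had the lowest rdd ratio of the 106 genes, 0.25. It had 43.0, 46.4 and 51.1 CPM in rdd YC4-R4 and 197, 189 and 176 CPM in rdd control libraries, against 154, 147 and 153 CPM in Col-0 plants with YC4-R4 and 71.3, 69.1 and 71.2 CPM in Col-0 control libraries. No groups overlapped, with rdd control highest and rdd YC4-R4 lowest. The mean of WRKY18 in rdd was 2.66 times that in Col-0 in control soil and 0.309 times in YC4-R4 soil. These opposite differences averaged to a log2 effect of -0.20 ± 0.03 over both soils (edgeR, Benjamini-Hochberg adjusted p = 1.62e-05). The gene tny (TINY), an AP2/ERF factor, had a Col-0 ratio of 3.32 and averaged 2.04 ± 0.364 CPM in rdd YC4-R4 and 4.16 ± 0.253 CPM in rdd control libraries, against 5.89 ± 0.34 CPM in Col-0 plants with YC4-R4 and 1.78 ± 0.0152 CPM in Col-0 control libraries. It did not pass the test over both soils (edgeR, Benjamini-Hochberg adjusted p = 0.207). For 3 regulators, named after their values were seen, the group levels separated by genotype, with all 6 rdd libraries above all 6 Col-0 libraries. CO, which promotes flowering in long days, averaged 4.91 ± 0.148 CPM in rdd YC4-R4 and 7.54 ± 0.701 CPM in rdd control libraries, against 3.2 ± 0.56 CPM in Col-0 plants with YC4-R4 and 1.32 ± 0.474 CPM in Col-0 control libraries. ERF73, a factor of the low-oxygen response, averaged 10.7 ± 0.664 CPM in rdd YC4-R4 and 23.0 ± 1.52 CPM in rdd control libraries, against 8.17 ± 0.0662 CPM in Col-0 plants with YC4-R4 and 4.52 ± 0.473 CPM in Col-0 control libraries. BZS1, a B-box factor, averaged 5.49 ± 0.952 CPM in rdd YC4-R4 and 8.61 ± 1.06 CPM in rdd control libraries, against 3.61 ± 0.715 CPM in Col-0 plants with YC4-R4 and 2.39 ± 0.213 CPM in Col-0 control libraries. CO and ERF73 overlap another tested gene. No gene of the lists of C2H2 zinc fingers, calcium sensors, circadian clock or auxin response was a member, nor was any of the 21 tested stress AP2/ERF factors on the list, 1 of which was left out by name. Of 11 tested myo-inositol genes, 0 were members and 1 was left out by name.

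Of 5 growth and auxin-related genes, 2 were higher and 1 lower in rdd over both soils (shares over all tested genes 20.8% and 22.2%). ARGOS, a gene of organ size, had 3.42, 4.15 and 4.2 CPM in rdd YC4-R4 and 13.1, 12 and 11.1 CPM in rdd control libraries, against 10.5, 10.3 and 9.15 CPM in Col-0 plants with YC4-R4 and 4.19, 4.27 and 3.58 CPM in Col-0 control libraries. The rdd YC4-R4 and Col-0 control libraries overlapped at the low end, and the effect over both soils was 0.06 ± 0.09 (edgeR, Benjamini-Hochberg adjusted p = 0.611). DFL2, annotated as an auxin-responsive GH3 family protein, averaged 33.9 ± 2.15 CPM in rdd YC4-R4 and 61.9 ± 3.85 CPM in rdd control libraries, against 93.1 ± 2.81 CPM in Col-0 plants with YC4-R4 and 35.7 ± 2.09 CPM in Col-0 control libraries, and was lower in rdd over both soils (log2 -0.39 ± 0.04, edgeR, Benjamini-Hochberg adjusted p = 2.48e-10). In control soil the rdd mean of DFL2 was 1.73 times Col-0, and in YC4-R4 soil 0.364 times. DFL2 overlaps another tested gene.

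The remaining 31 genes were 9 enzymes and 22 other or uncharacterised genes. Over both soils 5 enzymes were higher and 3 lower in rdd, and 12 of the others were higher and 4 lower. Over all tested genes the shares were 20.8% higher and 22.2% lower. AT4G21870, annotated as an HSP20-like chaperone, had the highest Col-0 ratio of the set, 3.9. It had 87.9, 92.3 and 91.0 CPM in rdd YC4-R4 and 167, 157 and 146 CPM in rdd control libraries, against 63.3, 70.0 and 66.4 CPM in Col-0 plants with YC4-R4 and 15.1, 16.2 and 19.9 CPM in Col-0 control libraries. All rdd libraries lay above all Col-0 libraries, and the effect over both soils was 1.77 ± 0.04 (edgeR, Benjamini-Hochberg adjusted p = 9.9e-28). AT1G15670, a kelch-repeat protein gene, averaged 53.1 ± 0.909 CPM in rdd YC4-R4 and 84.2 ± 4.82 CPM in rdd control libraries, against 42.6 ± 2.6 CPM in Col-0 plants with YC4-R4 and 18.1 ± 0.954 CPM in Col-0 control libraries, and was higher in rdd (log2 1.21 ± 0.04, edgeR, Benjamini-Hochberg adjusted p = 1.14e-23). AT1G68500, an uncharacterised gene with a Col-0 ratio of 3.35, averaged 6.65 ± 0.623 CPM in rdd YC4-R4 and 12.9 ± 0.861 CPM in rdd control libraries, against 12.3 ± 0.0871 CPM in Col-0 plants with YC4-R4 and 3.66 ± 0.451 CPM in Col-0 control libraries. AT3G11402, a C1-domain gene, averaged 2.41 ± 0.743 CPM in rdd YC4-R4 and 5.21 ± 0.995 CPM in rdd control libraries, against 4.16 ± 0.645 CPM in Col-0 plants with YC4-R4 and 1.54 ± 0.204 CPM in Col-0 control libraries, and its call over both soils was lost without any one of 4 libraries. Among the aspartyl protease genes, AT4G16563 averaged 22.1 ± 2.15 CPM in rdd YC4-R4 and 43.9 ± 2.73 CPM in rdd control libraries, against 61.8 ± 0.989 CPM in Col-0 plants with YC4-R4 and 22.5 ± 2.0 CPM in Col-0 control libraries and AT5G19110 averaged 11.2 ± 1.33 CPM in rdd YC4-R4 and 32.4 ± 0.584 CPM in rdd control libraries, against 29.8 ± 1.93 CPM in Col-0 plants with YC4-R4 and 15.6 ± 1.16 CPM in Col-0 control libraries. AT5G09670, a loricrin-like gene, averaged 1.68 ± 0.253 CPM in rdd YC4-R4 and 5.35 ± 0.359 CPM in rdd control libraries, against 2.41 ± 0.527 CPM in Col-0 plants with YC4-R4 and 1.25 ± 0.221 CPM in Col-0 control libraries. JAZ10, AT5G13210 and AT5G13200 are neighbours on chromosome 5. AT5G13200, a GRAM-domain gene, was lower in rdd over both soils (log2 -0.71 ± 0.06, edgeR, Benjamini-Hochberg adjusted p = 9.32e-12). It shares a stretch of at least 100 bases at 95% identity or more with transcripts of other genes. AT5G13210, of unknown function, was at -0.10 ± 0.14 (edgeR, Benjamini-Hochberg adjusted p = 0.589).

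**Figure D3:**
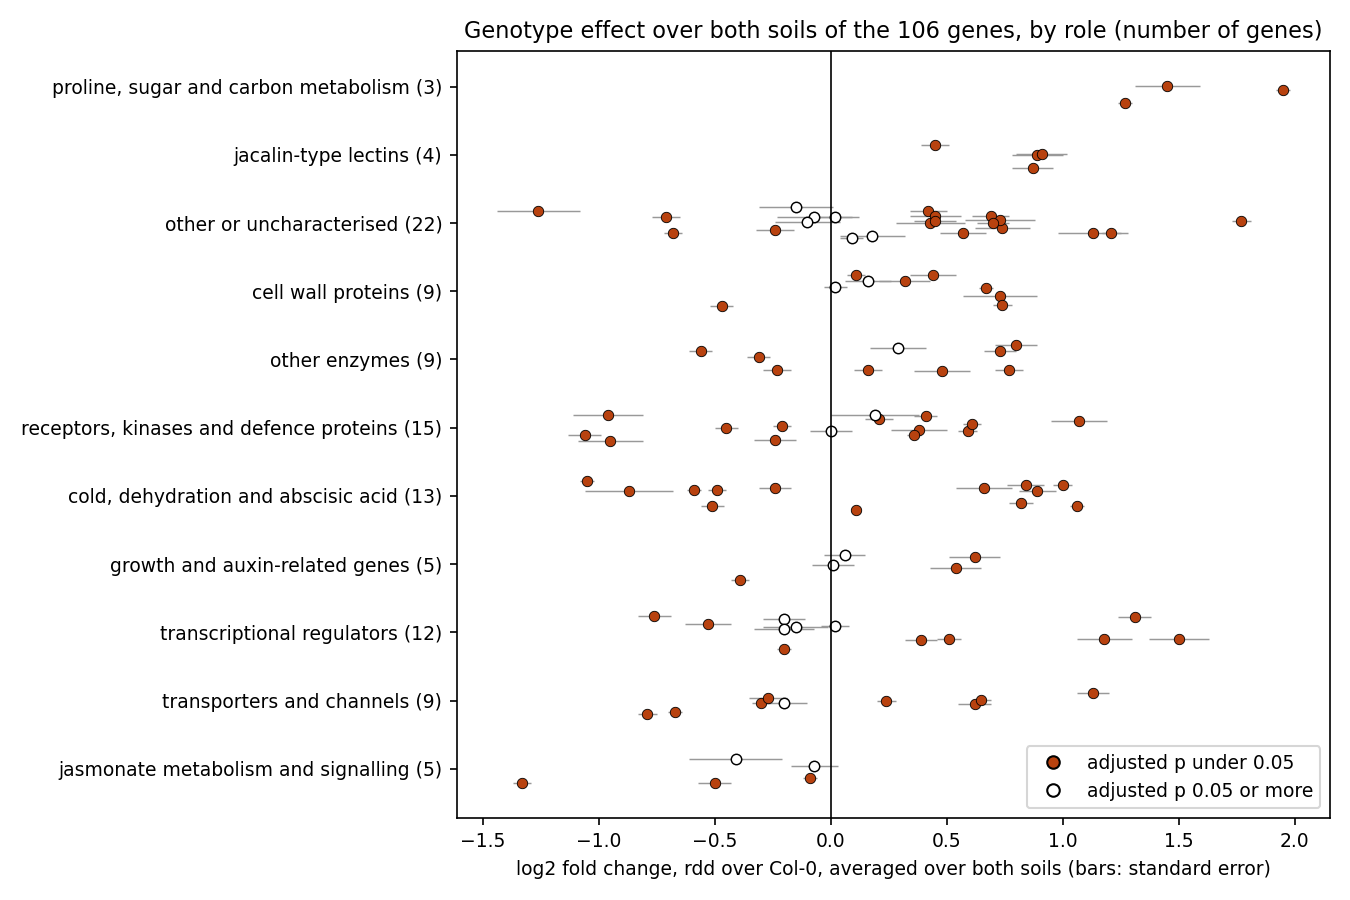
Genotype effect over both soils (log2 fold change, rdd over Col-0, with standard error) of each of the 106 genes, in rows by role with the number of genes, filled where the adjusted p was under 0.05. The 3 proline, sugar and carbon genes and the 4 lectins lie above 0, the 5 jasmonate genes lie below 0, and the other roles lie on both sides.

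In position, 7 pairs of the genes were adjacent, which took in 12 genes, and the 106 genes were spread over the 5 chromosomes with 25, 10, 22, 20 and 29 on chromosomes 1 to 5. Of the 106, 15 overlap another tested gene and 3 have a close copy, so that their counts are uncertain. A close copy here is a shared stretch of at least 100 bases, not a copy of the whole gene. Between replicates, the coefficient of variation of the 60 genes with at least 10 CPM had a median of 6.36% in rdd YC4-R4, 4.33% in rdd control, 3.86% in Col-0 YC4-R4 and 5.39% in Col-0 control. Over all 12938 genes of that level it was 5.17%, 4.36%, 4.05% and 4.12% in the same groups. The rdd YC4-R4 libraries had the widest spread, and without replicate 1 of that group the same limits chose 99 genes, 95 of them members.

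In the 300 bases upstream, the T/G-box AACGTG was found on either strand in 17.0% of the 106 genes and in 8.63% of the 20504 tested genes with a window. At least 2 copies stood before 4.72% of the 106 and 0.6% of all. The DRE core CCGAC stood before 20.8% of the 106 and 14.7% of all, with at least 2 copies in 5.66% and 1.98%. The abscisic acid response element (ACGTGG or ACGTGT), which can share letters with the T/G-box, stood before 26.4% and 18.9%. The CGCG box (ACGCGT or CGCGTT) stood before 8.49% and 4.16%, and the evening element AAATATCT before 9.43% and 5.78%. The W-box (TTGACC or TTGACT), the site of WRKY factors, stood before 35.8% and 32.1%, the G-box CACGTG before 8.49% and 7.9%, and the TGA site TGACGT before 9.43% and 9.12%. The share in the 106 genes was below that in all genes for site II (TGGGCC or TGGGCT), at 17.0% and 23.6%, and for the I-box GATAAG, at 12.3% and 14.7%. It was also below for the CCA1-binding site AAAAATCT (4.72% and 7.87%), the telo-box AAACCCTA (1.89% and 4.23%) and the GCC-box GCCGCC (0.943% and 2.38%). None of these differences was tested. Copies of the DRE core were not confined to 1 role. HVA22D had 4, LTI30 and LTI78 had 3, and the kinase gene AT3G59350 and the wall gene sks15 had 2 each, as had ERD7. Of the other genes of cold, dehydration and abscisic acid, AT5G60530 had 1 copy. COR47, ERD10, KIN1, PYL4, PYL5, TMAC2, AT2G41990 and AT3G19430 had no copy. The genes with 2 T/G-boxes were PCK2, MDHAR, PSK2, AT1G06620 and AT5G13200. Among the jasmonate genes of the set, JRG21 had 1 T/G-box, and LOX3, TIFY7, JAZ10 and ST2A had no T/G-box. Genes with repeated motifs are named here after their values were seen, and a match describes letters in a window only.

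**Figure D4:**
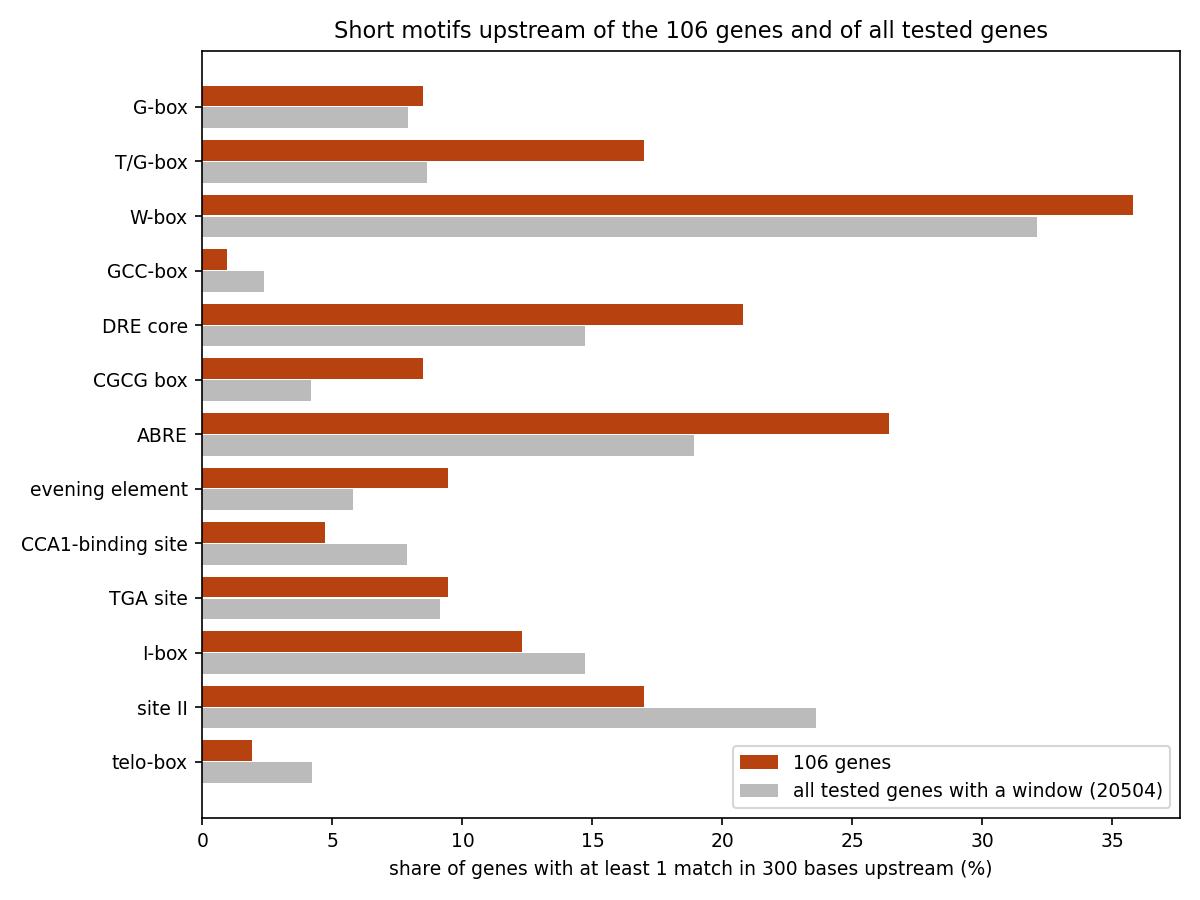
Share (%) of the 106 genes (upper bar of each pair) and of all 20504 tested genes with a window (lower bar) that hold at least 1 match to a short motif in the 300 bases upstream, on either strand. The bars of the 106 genes are longer for motifs such as the T/G-box (17.0% and 8.63%) and the CGCG box (8.49% and 4.16%), and shorter for others such as site II (17.0% and 23.6%) and the telo-box (1.89% and 4.23%).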

How the data were processed

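RNeasy columns and the NEBNext Ultra Directional library kit were used, per the labels' protocols. The authors deposited 1 table of unnormalized read counts, with a row for each gene. The tools named in the submitters' processing notes were Trimmomatic 0.36, HISAT2 2.1.0 and HTSeq 0.9.1, with the build TAIR10. The strand setting of the counting is not given in the sources used here.

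CPM was a count over its column sum, scaled to 1e6, with no further scaling. Fold changes came from edgeR 4.0.16 (R 4.3.3) on the counts as deposited, with filterByExpr by the 4 groups, TMM factors and quasi-likelihood fits to the 4 group means over 12 libraries (8 residual degrees of freedom). The adjustment was that of Benjamini and Hochberg across the 20651 tested genes, and calls needed an adjusted p under 0.05. DESeq2 1.42.0 was an alternative. The p-values measure the spread between these libraries. TMM factors were 0.941 to 0.954 in Col-0 control and 1.00 to 1.04 in the other libraries, so fitted Col-0 effects are lower than the CPM ratios.

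The 106 genes, the 13 gene lists and the roles were chosen with earlier results of these data known, and the roles after the genes were known. Named genes were the 10 highest Col-0 ratios, the 10 lowest rdd ratios, the 10 highest levels, the members on a list, the 10 smallest adjusted p of the genotype effect, adjacent members and the 3 genes on each side of a limit. Others were named after their values were seen. Annotation, coordinates and sequences come from RefSeq TAIR10.1. A close copy is a stretch of at least 100 bases at 95% identity in the transcript of another gene, and need not cover the whole gene. Replicate numbers were checked as pairs: of 18 pairs of same-numbered libraries, 0 had correlated deviations over 0.1, so samples were not paired.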

Additional observations from a re-analysis of the deposited data

How the results depend on the processing

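The number of genes called for genotype over both soils was 8891. It was 8895 with RLE size factors, 8964 with no filter on low counts, 7815 with DESeq2 and 8351 to 8923 without any one library. With the replicate number as a block, which pairs nothing here, it was 8844. Of the 106 genes, 52 to 57 were higher and 29 to 32 lower in rdd under these alternatives, against 55 and 31, and with the block these were 55 and 31. No called gene of the set changed direction. The call was lost under at least 1 alternative in 7 genes (AT1G06620, TIFY7, RLP32, AT3G06070, AT3G11402, XTH16 and HRGP1) and gained in 4 (AT3G54580, JRG21, RGL3 and MRN1), and the cause was not tested. The choice of the genes depended on its limits. A fold of 2 in both genotypes left 16 genes. TMM-normalized CPM gave 87 genes, 80 of them members, medians in place of means 112, with 99 members, a floor of 5 CPM 83, and a floor of 1 CPM 144. With the floor of 2 CPM on the mean of all libraries, an alternative added after seeing the data, 105 genes were chosen, with 57 higher and 30 lower in rdd. Leaving out genes that overlap another tested gene left 91. Without any one library the same limits chose 99 to 117 genes, and 81 members were chosen in each of these sets. Counts limit the rarest members, since 46 of the 106 averaged under 10 CPM.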
